A study of Homo sapiens with 3 samples.

Results

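The region examined was a stretch of 52.7 Mb of the long arm of chromosome 8, beginning at 65 Mb in hg18, the human genome build used by the authors, and the items were the DKK-1 ChIP-seq peaks that started in it. A peak was chosen by its listing, that is, by its MACS P value of 1e-05 or less against at least 1 of 2 controls, and by its position. Peaks with the same start and end in both lists were counted once. This gave 1565 peaks of the 8723 in the union of both lists. They made up 17.9% of the union in a segment that corresponds to 1.95% of the effective genome size. Since the listing itself selected the peaks, and the segment was picked with the peak numbers known, all values are given as a description, with no test.

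The material was DLD-1, a human colorectal cancer cell line that makes no DKK-1 of its own. DLD-1/DKK-1 cells were transduced with a lentiviral, doxycyclin-inducible construct for V5-tagged DKK-1 that also encoded eGFP, and DLD-1/Mock cells with the corresponding vector without DKK-1. Each line gave 1 immunoprecipitate, and pooled input DNA served as a further control, so every condition had 1 library. Doxycyclin was added to the culture for DKK-1 expression, but for how long before ChIP is not given in the sources used here. The sample records name an anti-V5 antibody and the Methods one against DKK-1, so which was used is uncertain here.

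DKK-1 is a secreted inhibitor of canonical Wnt signaling that binds the co-receptors LRP5 and LRP6 at the cell surface. The study examined a fraction of the protein found in the nucleus and asked which genomic regions it occupies. In such an assay, DNA fragments bound by the protein are enriched over a control, and a run of overlapping reads (tags) is called a peak. A control immunoprecipitate from cells without the protein accounts for DNA pulled down unspecifically, whereas input DNA accounts for uneven recovery of the genome.

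The DLD-1/DKK-1 library held 21312041 tags after filtering, DLD-1/Mock 24151009 and input 27723787. The filter kept at most 2 DLD-1/DKK-1 tags per position, so duplicates were limited and not fully removed. At this depth 1.18 tags were expected by chance in a fragment of 150 bp. The median peak of the segment rested on 17 tags, for which the 95% Poisson interval is 9.90 to 27.2 and covers counting error only. The empirical FDR given by MACS for the segment's peaks was never under 33.3% in the DLD-1/Mock list or under 65.5% in the input list. Its median was 45.2% in the former and 77.4% in the latter, and it reached 100% in both. This FDR is obtained by MACS from the peaks called when ChIP and control are exchanged. Single peaks are therefore given with their counting intervals, and the segment is described mainly by counts and medians.

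Peaks were numerous along the whole segment, at 29.7 per Mb. Chromosome 8 below 65 Mb held 257 peaks, or 3.95 per Mb, and the remainder of chromosome 8 beyond the segment held 728, or 25.5 per Mb. On the 22 other chromosomes with at least 10 peaks the density had a median of 1.83 per Mb, with a range of 0.933 to 5.14. The segment was thus denser than each of these chromosomes taken as a whole and than both flanks, although its density was close to that of the distal flank. Stretches of similar length on the other chromosomes were not measured. The separate lists gave the same order on chromosome 8. Against DLD-1/Mock the segment held 24.0 peaks per Mb, the proximal flank 2.85 and the distal flank 22.2. Against input the corresponding densities were 17.8, 2.72 and 13.0.

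The proximal bound itself was not marked by a change in density. The 5 windows of 1 Mb before it held 6, 13, 11, 10 and 10 peaks. The first peak, chr8:65003219-65003620, was listed against input only and had 13 tags and a fold enrichment of 7.60. The nearest peak outside, chr8:64989527-64990056, was listed against DLD-1/Mock only and had 17 tags and a fold enrichment of 8.45. These folds refer to different controls and are not comparable. In the segment, the windows from 65 to 66 Mb and from 66 to 67 Mb held 8 and 6 peaks, and the next 3 windows held 23, 17 and 39. The counts thus rose from 67 Mb onwards. At the distal bound, the last peak, chr8:117656821-117657448, had 22 tags and a fold enrichment of 5.81. The next peak beyond it, chr8:117726185-117726811, had 19 tags and a fold enrichment of 7.62. Both were listed against DLD-1/Mock only.

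Within the segment the density varied. The 52 full windows of 1 Mb held a median of 29 peaks, with an interquartile range of 22.8 to 36 and a range of 6 to 64. At least 20 peaks were found in 43 windows, at least 40 in 8 and fewer than 15 in 3. The variance of the counts was 4.34 times their mean, where a ratio of 1 would be that of a constant rate. The window with most peaks, from 100 to 101 Mb, contains the whole VPS13B transcript, and the window with fewest was that from 66 to 67 Mb. Besides these, the windows from 70 to 71 Mb and from 74 to 75 Mb held 52 and 53 peaks.

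**Figure D1:**
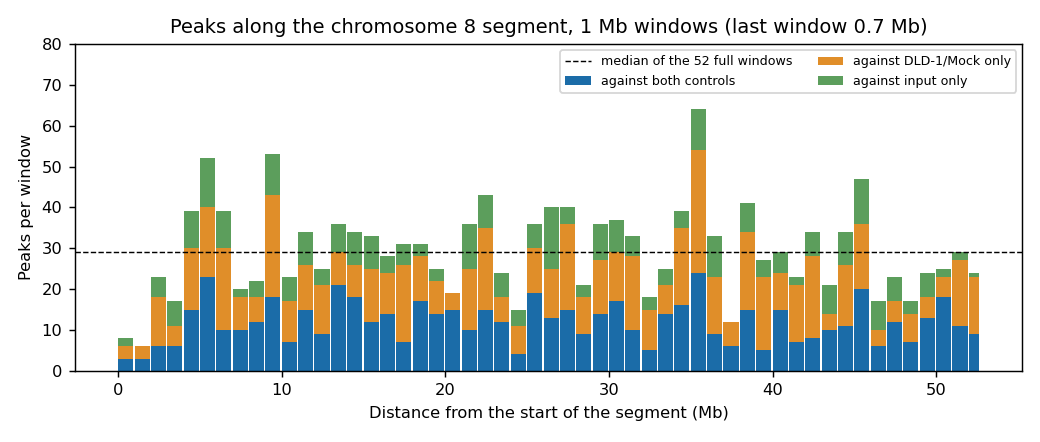
Number of peaks in each 1 Mb window (vertical axis) against distance from the start of the segment in Mb (horizontal axis), stacked by the control against which the peak was listed. The dashed line is the median of the full windows, 29 peaks. The first 2 windows hold 8 and 6 peaks, and the highest bar, with 64, starts 35 Mb into the segment.

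Neighbouring peaks lay a median of 19946 bp apart, with an interquartile range of 7162 to 43600 bp. Of the 1564 gaps, 81 (5.18%) were of 1000 bp or less and 507 (32.4%) of 10000 bp or less. The widest gap, of 374559 bp, lay between positions 75452576 and 75827136. When peaks within 10000 bp were joined, 1058 runs resulted, of which 757 were single peaks and 24 contained at least 5. The largest run, chr8:69971980-70007446, contained 10 peaks in 35467 bp, 5 of them in both lists, with 13 to 32 tags each. The next, chr8:70054215-70082443, contained 9 peaks with 13 to 41 tags and lay close by. Even in these runs the peaks remained separate and covered only 16.2% and 19.3% of the sequence.

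Of the 1565 peaks, 634 were listed against both controls, 629 against DLD-1/Mock only and 302 against input only. The share in both lists was 40.5% (95% Wilson interval 38.1 to 43.0), and the background in the whole union was 36.6%. Read from each list, 50.2% of the segment's 1263 peaks against DLD-1/Mock and 67.7% of its 936 peaks against input were shared. Peaks listed against input only made up 19.3% (17.4 to 21.3) of the segment, 12.9% (10.7 to 15.5) of the distal flank, 28.0% (22.9 to 33.8) of the proximal flank and 26.3% (25.2 to 27.4) of the other chromosomes. The segment and the distal flank thus had a lower share of such peaks than the rest. The intervals cover counting error only, and both lists share the DLD-1/DKK-1 library, so presence in both is not a replication.

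List membership varied along the segment. In stretches of 5 Mb the share in both lists ranged from 33.3% (100 to 105 Mb) to 46.1% (75 to 80 Mb), and it was 48.7% in the last 2.7 Mb. Peaks listed against DLD-1/Mock only were most frequent from 100 to 105 Mb, at 49.2%, and least frequent from 110 to 115 Mb, at 28.9%. In the last 2.7 Mb only 5 of 78 peaks (6.41%) were listed against input only, compared with 33 of 128 (25.8%) in the stretch before it.

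Most peaks in 1 list lay close to the limit of detection. The MACS score, a P value as negative log10 times 10, had to reach 50 for a peak to be listed. It was under 60 in 423 of the 629 peaks (67.3%) listed against DLD-1/Mock only and in 215 of the 302 (71.2%) against input only. Of the 634 shared peaks, 342 (53.9%) had their lower score under 60. Scores of at least 100, that is, P values of 1e-10 or less, were given in the DLD-1/Mock list to 71 of 1263 peaks, or 5.62% (4.48 to 7.03) beside 3.48% of that whole list. Against input they were given to 33 of 936, or 3.53% (2.52 to 4.91) beside 2.94%. The segment's share was higher than that of the whole list against DLD-1/Mock and close to it against input, where each whole list includes the segment. The intervals cover counting error in single libraries only, and the score is the value by which peaks were listed. No conclusion is therefore drawn from the difference.

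Tags and width rose together among the peaks. The number of tags ranged from 12 to 427, with a median of 17 and an interquartile range of 15 to 22, and 1092 peaks (69.8%) had 20 or fewer. Widths ranged from 243 to 1943 bp, with a median of 505 bp. Across the 1565 peaks Spearman's rho between tags and width was 0.907, which is a description, since a peak is extended until its tags end and both values come from the same library. All peaks together held 31216 tags, 0.146% of the library, and covered 1.67% of the segment. The medians of the segment, 17 tags and 505 bp, compare with 16 tags and 469 bp in the proximal flank, 18 tags and 535 bp in the distal flank, and 16 tags and 462 bp on the other chromosomes. The interquartile ranges of tags overlapped, being 15 to 22 in the segment and 14 to 20 in the proximal flank, and no test was made.

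Shared peaks had more tags and were wider than peaks in 1 list. The median was 19 tags (interquartile range 16 to 25) and 547 bp for shared peaks, 16 tags (14 to 20) and 482 bp for peaks against DLD-1/Mock only, and 16 tags (15 to 20) and 496 bp for peaks against input only. The share in both lists rose from 33.2% of the 1092 peaks with up to 20 tags to 55.9% of the 426 peaks with 21 to 39 tags and 72.3% of the 47 peaks with 40 or more. Fold enrichment went the other way, with medians against DLD-1/Mock of 7.99, 7.56 and 6.97 in these classes and medians against input of 7.60, 7.06 and 6.18. Among the listed peaks, those rich in tags were therefore mostly wide and of modest fold. A peak of few tags needs a higher fold to pass the P value limit, and one with many tags passes it more easily. Neither the fall in fold nor the rise in sharing is thus independent of the listing.

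**Figure D2:**
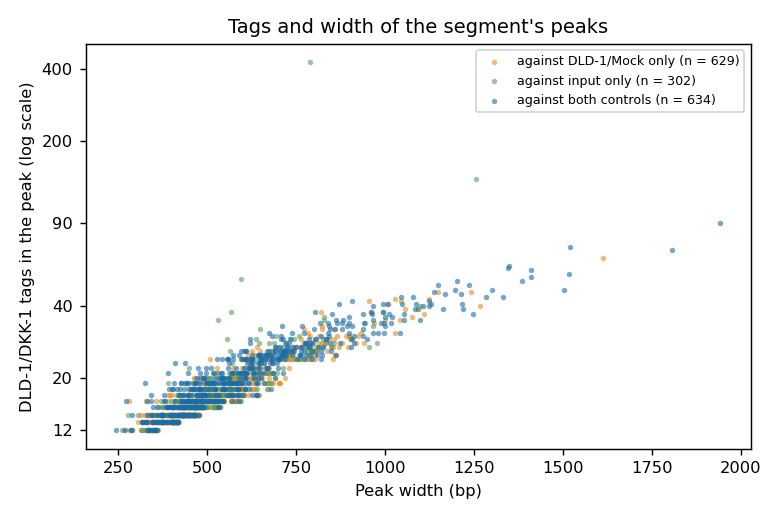
DLD-1/DKK-1 tags in each peak on a log scale (vertical axis) against peak width in bp (horizontal axis), with 1 point per peak coloured by the control against which it was listed. Most points follow 1 band from 12 tags up to the widest peak of 1943 bp with 90 tags, and the few far above it, up to 427 tags in 790 bp, were listed against input only.

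The peak with most tags, chr8:70764734-70765523, had 427 tags (95% Poisson interval 388 to 470) in 790 bp and was listed against input only, with a fold enrichment of 12.3 and a score of 1001. It lay in an intron of SLCO5A1, which encodes a member of the organic anion transporter family. As fold enrichment is the tags at the summit over those expected, the expectation from input there was at most 34.8 tags, or 29.4 times the genome-wide value. The peak next in tags, chr8:82916837-82918092, had 138 tags (116 to 163) in 1256 bp and was also listed against input only, with a fold enrichment of 12.6. Neither passed the limit of detection against DLD-1/Mock. In the input list their FDR was 66.7% and 100%. In the whole union 42 peaks exceeded 100 tags, and 19 of these were likewise listed against input only.

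The peaks that followed in tags were in both lists. The peak chr8:99120627-99122569 had 90 tags (72.4 to 111) and was the widest of the segment at 1943 bp, with folds of 7.08 against DLD-1/Mock and 8.61 against input. It began 2505 bp beyond the end of the MATN2 transcript. The peak chr8:97343976-97345496 had 71 tags (55.5 to 89.6), with folds of 10.7 and 6.61, and chr8:100093863-100095669 had 69 (53.7 to 87.3), with folds of 4.06 and 4.54. Their Poisson intervals overlapped, and so their order is uncertain. The latter peak lay over the start of VPS13B. Its FDR was 41.8% in the DLD-1/Mock list and 100% in the input list. The peaks with 90 and 71 tags had an FDR of 100% in each list. The narrowest peak of the segment, chr8:103364929-103365171, had 12 tags (6.20 to 21.0) in 243 bp and was nevertheless in both lists, with folds of 6.48 and 8.33.

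The tags per kb were alike in the classes, with medians of 35.4 in shared peaks, 33.3 against DLD-1/Mock only and 33.4 against input only. However, 5 peaks, singled out after their values were seen, exceeded 60 tags per kb, with 65.9 to 540. All 5 were listed against input only, and the next densest peak had 58.8. Besides the peak in SLCO5A1 and that with 138 tags, these were 3 neighbours within 21840 bp, chr8:67650706-67651299 with 52 tags, chr8:67654776-67655341 with 38 and chr8:67672015-67672545 with 35. No other peak of the segment lay between them. Their folds against input, 12.9, 14.1 and 13.3, were among the 5 highest of the segment. The other such peaks were chr8:87683067-87683718 in CNGB3, with a fold of 13.5, and chr8:71909568-71910131, with a fold of 12.7 and 26 tags. All 5 peaks with the highest input folds had an FDR of 100% in the input list.

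Against DLD-1/Mock the 5 highest folds all belonged to shared peaks. The highest, 13.6, was that of chr8:103376947-103378295, which had 59 tags (44.9 to 76.1) and a fold of only 8.26 against input. The next, chr8:70492885-70493658 with 28 tags, had folds of 11.6 over input and 13.5 over DLD-1/Mock. The peak chr8:91028290-91028959 with 22 tags followed, with 9.77 and 13. The remaining ones were nearly equal against the controls, chr8:86930430-86930820 with 12.5 and 12.7 and chr8:83807778-83808262 with 12.7 for each. The latter rested on 17 tags (9.90 to 27.2), which shows how few tags can give a high fold where little is expected. The FDR of the peak with the highest fold, 13.6, was 100% in each list. For the others it was 38.2% to 44.4% in the DLD-1/Mock list and 73.1% to 100% in the input list.

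A fold enrichment of at least 10 was reached by 123 of the 1263 peaks against DLD-1/Mock, or 9.74% (8.22 to 11.5) beside 9.12% of that whole list. Against input it was reached by 75 of 936, or 8.01% (6.44 to 9.93) beside 9.60%. Among the 634 shared peaks 33 reached it against both controls, or 5.21% (3.73 to 7.22) beside 6.27%. These shares were near the background, so peaks of high fold were about as frequent in the segment as in the lists at large. The 33 peaks were the same intervals as the segment's entries in the authors' list of specific sites. They had 12 to 32 tags with a median of 19, widths of 288 to 860 bp, folds of 10.0 to 13.5 against DLD-1/Mock and folds of 10.0 to 13.5 against input. None of the 47 peaks with 40 or more tags was among them.

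The specific sites lay mainly in the proximal part of the segment. Of the 33, 24 started between 65 and 85 Mb and 9 beyond 85 Mb, a division chosen after the values were seen. Related to shared peaks, these were 24 of 240, or 10% (6.81 to 14.5), and 9 of 394, or 2.28% (1.21 to 4.28). The density of all peaks hardly differed, at 29.0 and 30.2 per Mb, and the median was 17 tags in both. Folds of at least 10 were more frequent in the proximal part in each list, with 12.1% and 8.39% against DLD-1/Mock and 12.7% and 5.16% against input. These shares count the specific sites too, so they add no separate evidence for the division. The intervals do not allow for a division placed after the values were seen. Consecutive specific sites were 24319 to 6104307 bp apart from start to start. The closest pair, chr8:69982538-69983397 and chr8:70006857-70007446, belonged to the largest run of peaks described above.

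The stretch from 100 to 105 Mb combined many tags with low folds. Its 177 peaks had the highest medians, 21 tags and 594 bp, and 16 of the 47 peaks with 40 or more tags lay there. Its median folds, 7.55 against DLD-1/Mock and 6.74 against input, were nevertheless the lowest of the 11 stretches, and it contained a single specific site. By contrast, the stretch from 65 to 70 Mb had 93 peaks with a median of 17 tags, folds of 8.31 and 7.60 and 5 specific sites.

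**Figure D3:**
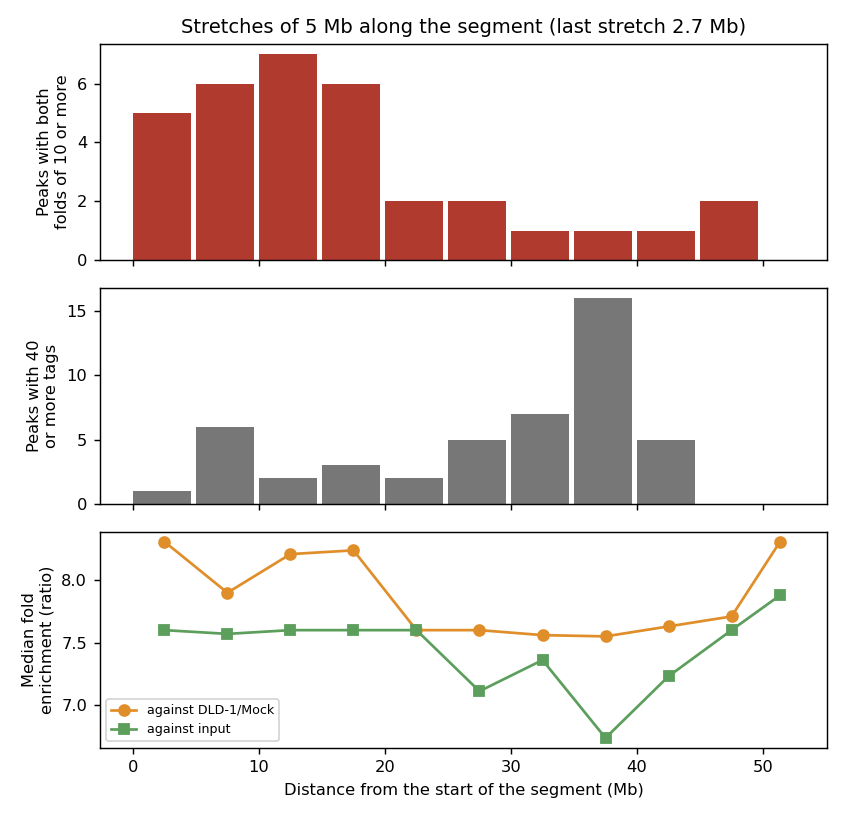
Values in stretches of 5 Mb against distance from the start of the segment in Mb, from top to bottom the number of peaks with both folds of at least 10, the number of peaks with 40 or more tags, and the median fold enrichment against DLD-1/Mock (circles) and input (squares). The first 4 stretches contain 24 of the 33 peaks of high fold, while 16 of the 47 peaks with 40 or more tags lie in the stretch that starts 35 Mb into the segment.

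The folds also show which expectation MACS used. Where the control around a peak gave no more than the genome-wide 1.18 tags, the fold is a whole number of tags divided by this value, and elsewhere the local control set the expectation. Such a fold was found in 37.0% of the segment's DLD-1/Mock list and in 25.9% of its input list. On the other chromosomes the shares were 38.4% and 43.8%, in the distal flank 29.3% and 22.7%, and in the proximal flank 29.2% and 39.5%. Peaks of the segment and the distal flank were thus measured against a raised local input more often than those of the proximal flank and the other chromosomes. For DLD-1/Mock the segment was near the other chromosomes, and both flanks had lower shares.

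The same values varied along the segment. From 100 to 105 Mb the share at the genome-wide expectation fell to 15.8% in the DLD-1/Mock list and 3.33% in the input list, the lowest of all stretches. In the last 2.7 Mb it was 60.3% and 39.5%. From 65 to 85 Mb it was 45.7% and 31.8%, and from 85 Mb onwards 31.9% and 22.2%. The distal part, with fewer specific sites, was thus also the part where more folds rested on a raised local control. The last 2.7 Mb contained 0 specific sites among 38 shared peaks, with a Wilson interval of 0 to 9.18%. This interval includes the 2.28% of the whole distal part, so these 38 peaks are too few to show a departure from it. The part of the local control in the position of the specific sites was not tested.

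For the 634 shared peaks both folds refer to the same tags at the same summit, so their ratio is that of the expectations from the controls. Fold enrichment was higher against DLD-1/Mock in 364 peaks, or 57.4% (53.5 to 61.2), equal in 93 (14.7%) and lower in 177 (27.9%). The median ratio of the fold against DLD-1/Mock to that against input was 1.04, with an interquartile range of 0.993 to 1.17. On the other chromosomes the fold against DLD-1/Mock was higher in 39.3% (37.3 to 41.4) of 2174 shared peaks, and the median ratio was 1. There the folds were equal in 27.6%, and the fold against DLD-1/Mock was lower in 33.1%. In the distal flank it was higher in 55.1% (49.2 to 60.8) and in the proximal flank in 41.0% (32.0 to 50.5). The segment and the distal flank were therefore similar, and input gave a higher expectation than DLD-1/Mock more often there than on other chromosomes. Part of this contrast lay in equal folds, which were more frequent on the other chromosomes. Of the segment's shared peaks, 134 were at the genome-wide expectation against DLD-1/Mock only. Their expectation from input had a median of 1.36 tags (interquartile range 1.27 to 1.5). On the other chromosomes 309 peaks picked in the same way had a median of 1.34 tags (1.27 to 1.49). The selection itself placed these input expectations off the genome-wide value. It also left out 349 shared peaks of the segment that were at the genome-wide expectation against neither control. The size of the shift for a single peak can therefore not be read from the 134 peaks.

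**Figure D4:**
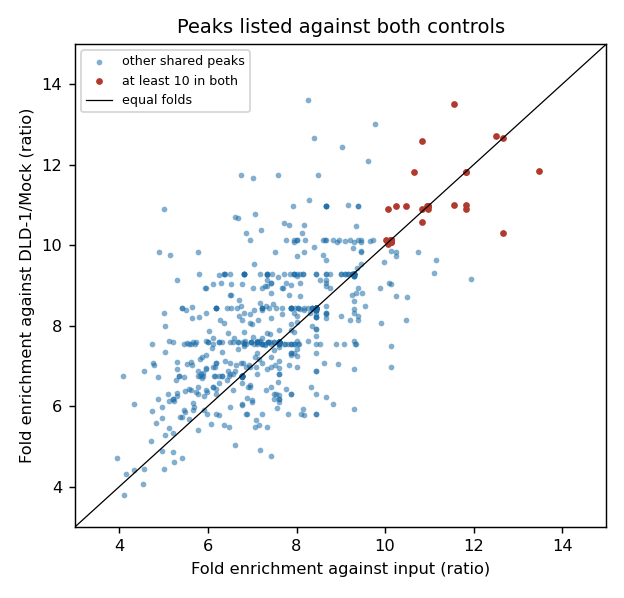
Fold enrichment against DLD-1/Mock (vertical axis) and against input (horizontal axis) of the 634 shared peaks, with 1 point per peak. The line marks equal folds, 364 points lie above it and 177 below, and the 33 peaks with at least 10 against both controls are drawn in a second colour.

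The ratio differed along the segment as well. It had its highest median, 1.14, from 100 to 105 Mb, where 69.5% of 59 shared peaks had the higher fold against DLD-1/Mock. From 75 to 80 Mb and from 110 to 115 Mb the median was 1. The most unequal peak was chr8:84248077-84248697 with 29 tags, whose folds were 10.9 in the DLD-1/Mock list and 5 in the input list, a ratio of 2.18. The opposite case was chr8:115701789-115702326 with 20 tags, with folds of 5.94 and 9.29 and a ratio of 0.639. A ratio of at least 1.2 was found in 142 shared peaks, or 22.4%, beside 25.7% in the distal flank, 14.3% in the proximal flank and 12.8% on the other chromosomes. A ratio of 0.8 or less was found in 27, or 4.26%, beside 3.26%, 9.52% and 4.88%. Of the pair named here, the former passed a fold of 10 against DLD-1/Mock and not against input.

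The list of specific sites gives a gene for 7 of the segment's 33 sites, or 21.2% (10.7 to 37.8), and for 76 of the 167 sites elsewhere, or 45.5% (38.1 to 53.1). The list annotates all 7 as intronic. The genes were C8orf44, TCF24, PREX2, SLCO5A1, CNGB3, MATN2 and VPS13B. Sites with a gene were thus a minority, and 26 of the 33 carried no gene in the list. The FDR of the 7 sites was 34.7% to 53.6% against DLD-1/Mock. Against input it was 92.5% for the MATN2 site and 100% for the others.

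The sites with a gene are described in turn. In C8orf44 the site chr8:67754590-67755212 had 22 tags (13.8 to 33.3) and folds of 12.6 against DLD-1/Mock and 10.8 against input. By the listed coordinates it touched exon 4 of 4, although it was annotated as intronic. In TCF24, which encodes a basic helix-loop-helix transcription factor, the site chr8:68033730-68034381 had 20 tags (12.2 to 30.9) and a fold of 10.1 against each control, 1784 bp from the nearest exon. These genes are short, and each contained no other peak.

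PREX2, an exchange factor that activates the GTPase Rac, contained 12 peaks in 279294 bp, 3 in both lists, 5 against DLD-1/Mock only and 4 against input only. They had 13 to 23 tags, and the specific site, chr8:69265656-69266351, was the one with 23 (14.6 to 34.5), with a fold of 11.8 against each control. It lay 160 bp from the nearest exon and 238846 bp from the transcript start. No peak of PREX2 touched an exon.

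SLCO5A1 contained 8 peaks in 160836 bp. Its specific site, chr8:70812380-70812998, had 22 tags (13.8 to 33.3) and folds of 11.8 over input and 10.9 over DLD-1/Mock. The peak of 427 tags described above lay in the same transcript, 7603 bp from the nearest exon, and was not a specific site since it was absent from the DLD-1/Mock list. The gene was thus listed by the authors for a peak of 22 tags and not for the peak with the segment's highest tag count.

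CNGB3, a subunit of the cation channel of cone photoreceptors, contained 7 peaks in 169740 bp with 14 to 35 tags. Its specific site, chr8:87683067-87683718, had 21 tags (13.0 to 32.1) and folds of 11.9 in the DLD-1/Mock list and 13.5 in the input list, the latter the highest input fold of any shared peak in the segment. MATN2, which encodes the extracellular matrix protein matrilin-2, contained 3 peaks in 167635 bp. Its site, chr8:98997932-98998508, had 18 tags (10.7 to 28.4) and a fold of 10.1 against each control, 13849 bp from the nearest exon. With an interval of this width, neither the tags nor the folds separate these sites from one another.

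VPS13B, a large gene for a lipid transfer protein of the Golgi apparatus that is mutated in Cohen syndrome, contained 56 peaks in 864314 bp, 22 in both lists, 25 against DLD-1/Mock only and 9 against input only. This is 64.8 per Mb, compared with 28.9 per Mb outside the 7 transcripts. The transcripts were selected for having a specific site, and this comparison was therefore not independent of the peaks. The 56 peaks made up most of the 64 in the densest window of the segment. Neighbours lay 21 to 59236 bp apart, with a median of 8840 bp.

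In tags and folds the peaks of VPS13B were ordinary. Their medians were 19 tags and 520 bp, and their median folds were 6.99 over input and 7.55 over DLD-1/Mock. A fold of at least 10 was reached by 4 of the 47 listed against DLD-1/Mock, or 8.51% beside 9.12% of that whole list. In the input list it was reached by 2 of 31, or 6.45% beside 9.60%. A single peak, chr8:100471827-100472534, reached it against both, with 30 tags (20.2 to 42.8), folds of 11.8 and 10.7 and scores of 116 and 106. It lay 427 bp from an exon and 377510 bp from the transcript start. The peak over the transcript start, with 69 tags, covered exons 1 and 2 and had the lowest fold of the gene against each control. The peak in VPS13B next in tags had 41 tags, at chr8:100630382-100631510.

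**Figure D5:**
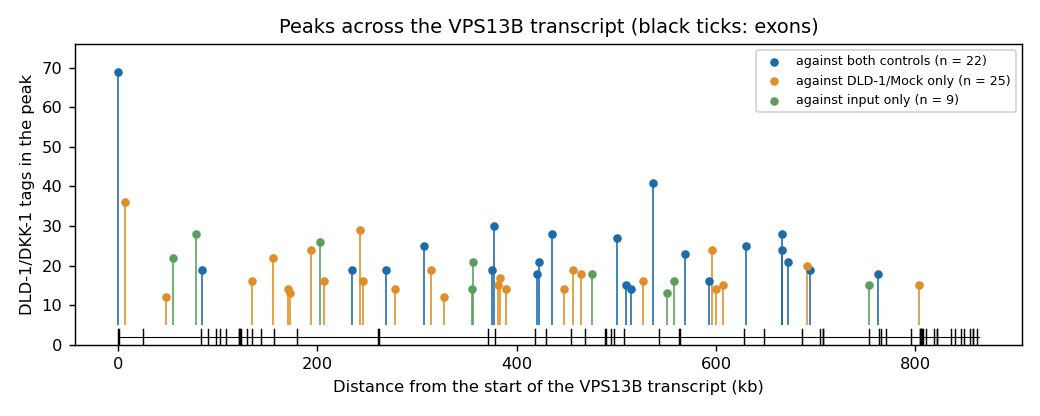
DLD-1/DKK-1 tags in each of the 56 peaks of VPS13B (vertical axis) against the distance of the peak's centre from the transcript start in kb (horizontal axis), coloured by the control against which the peak was listed. Black ticks at the bottom are exons, and the tallest line, with 69 tags, stands at the transcript start.

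Across the 7 transcripts 88 peaks were found, of which 6 touched an exon and 1 had its centre within 1000 bp of a transcript start. The exons touched were in VPS13B for 3 peaks and in C8orf44, SLCO5A1 and CNGB3 for 1 each. Peaks of the segment that lay in other genes were not annotated here, since the authors' list gives transcripts for specific sites only.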

How the data were processed

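The authors aligned 40 bp reads to hg18 with ELANDv2 in CASAVA 1.7, kept unique alignments and called peaks with MACS 1.4.0beta on single libraries. Per the file headers the P value cut-off was 1e-05, the effective genome size 2700000000 bp, the fragment size 150 bp and the regional background 1000 and 10000 bp, with at most 2 tags per position. The authors deposited for each peak the tags as a count without normalization, the score as −log10 P multiplied by 10, the fold enrichment as a ratio of tags at the summit to expected tags, and the FDR as a percent. A further deposited list gives specific sites with RefSeq transcripts.

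Lists were joined on start and end with pandas 2.3.3 and numpy 2.4.6 under Python 3.11.15, intervals were computed with scipy 1.17.1 and plots drawn with matplotlib 3.10.9. A fold was taken as lying at the genome-wide expectation when it was within 0.0051 of a whole number of tags over that value. Peaks touching a transcript by at least 1 bp were counted to it. Shares have 95% Wilson intervals and tags exact Poisson intervals, which cover counting error only. With 1 library per condition no test was made. The joining and overlap functions were tested on simulated data.

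The peaks, genes and groups were chosen with earlier results of these data known. Peaks described individually were the specific sites with a gene, the 5 with most tags, the 5 with the highest fold against each control, the widest and the narrowest, those next to the bounds, and the extreme windows and gap; others are marked as chosen later or are extremes of a value given. Alternatives were stricter limits of P, fold and FDR, merging, other overlaps, bounds, windows and fold limits, means, and leaving out the widest 1%. No annotation of hg18 beyond the authors' list and no sequence was used here.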

Additional observations from a re-analysis of the deposited data

How the results depend on the processing

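With a P value of 1e-10 or less in at least 1 list, 86 of the 1565 peaks were left (1.63 per Mb), with medians of 37 tags and 940 bp, and 18 passed in both lists. A fold limit of 10 in at least 1 list left 165 (3.13 per Mb), of which 33 passed it against each control. No peak met an FDR limit of 5%, which left 0 peaks and 0 per Mb were left, 0 of them in both lists, and no median could be given. The input list by itself, shared peaks included, had a density of 17.8 per Mb. A limit of 9 in place of 10 gave 88 peaks of high fold against both controls and a limit of 11 gave 6, so the number of specific sites rests on the limit chosen. The coefficient of variation of peaks per window was 38.3% at 1 Mb and 18.1% at 5 Mb. Under merging within 1000 bp, the other overlap rules, bounds and lengths, the means, and leaving out the widest 1% or, as chosen after seeing the data, the 2 peaks with most tags, counts stayed within 1.5 times the values reported. The median stayed at 17 tags and at 504 to 510 bp, and the means were 19.95 tags and 563 bp. No paired analysis was possible because there was 1 library in every condition. Depth limits all statements on single peaks, as most rest on 20 or fewer tags.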
